A study of Mus musculus with 16 samples.

Results

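The mitochondrial genome encodes 37 genes, and all of those placed on the mitochondrial chromosome in the FPKM table of mouse retina (37 of 54532 genes) are described here. They comprise 13 genes for messenger RNAs (mRNAs), 2 for ribosomal RNAs (rRNAs) and 22 for transfer RNAs (tRNAs). RNA sequencing of whole retinas, from RNA labelled as poly(A) RNA, covered 4 retinas of wildtype (WT) mice aged 18 months, 3 of mice with mutant Elovl2 aged 12 months and 3 of WT mice aged 12 months. The design text names C57BL6/J mice and writes the mutation as Elovl2 C234W, while the genotype labels write Elovl2C34W, a change in a gene for an enzyme that lengthens polyunsaturated fatty acids. None of these 10 retinas was injected. Whether every library came from its own animal is not stated in the labels, so p-values here reflect the spread between libraries, some of which may be technical.

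Mitochondrial DNA is a small circle whose genes lie head to tail with almost no spacing. Each strand is transcribed as one long precursor, and tRNAs that punctuate the mRNAs and rRNAs are cut out to release them. The mRNAs encode core subunits of respiratory complexes I, III and IV and of ATP synthase (complex V), and the rRNAs and tRNAs serve the mitochondrial ribosome that translates them. Photoreceptors hold dense mitochondria in their inner segments and use much ATP to run ion pumps. Nuclear chromosomes carry old insertions of mitochondrial DNA, and reads from a near-identical insertion and from the mitochondrial gene are hard to tell apart.

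The sequences at the gene mt-Nd3, which encodes a complex I subunit, are shown first. Among the mitochondrial genes tested, mt-Nd3 and the tRNA genes beside it had the largest log2 differences between WT at 18 months and mutants. These groups differ in both age and genotype, and none of these genes passed the threshold in the fit of all libraries. WT 12-month replicate 1 sat with the mutants in both tRNA genes. The sum of mt-Nd3 and its nuclear copy overlapped between the groups. In the mm10 coordinates of the table, mt-Nd3 (ENSMUSG00000064360, MT:9459-9806, plus strand) directly follows the glycine tRNA gene mt-Tg (MT:9391-9458). It is followed after a single base by the arginine tRNA gene mt-Tr (MT:9808-9875). The proline tRNA gene mt-Tp (MT:15356-15422, minus strand) is shown beside them as the tRNA gene with the highest level. Capitals mark the anticodon in the tRNA genes, and in the last pair they mark the base that differs between the first 60 bases of mt-Nd3 (MT:9459-9518) and of its nuclear copy Gm28438 (1:24613060-24613119, minus strand). Sequences are from GENCODE M21 on GRCm38, which is mm10, and all 44 genes and copies compared had the same coordinates there as in the table.
mt-Tg: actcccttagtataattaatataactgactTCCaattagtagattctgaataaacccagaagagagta
mt-Tr: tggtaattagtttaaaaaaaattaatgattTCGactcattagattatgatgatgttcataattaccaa
mt-Tp: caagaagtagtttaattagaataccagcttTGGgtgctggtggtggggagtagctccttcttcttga
mt-Nd3: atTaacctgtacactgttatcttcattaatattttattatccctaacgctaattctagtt
Gm28438: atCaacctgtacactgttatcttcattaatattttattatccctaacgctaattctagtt

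The copy belongs to a stretch of chromosome 1 (24611535 to 24616197, mm10, minus strand) with 7 annotated pseudogenes. They copy, in the same order, the end of mt-Co1 and then mt-Co2, mt-Atp6, mt-Co3, mt-Nd3, mt-Nd4l and the start of mt-Nd4. Counted from 1 at the 5′ end of the mitochondrial gene, mt-Nd3 and Gm28438 differed by T3C, at MT position 9461, and by nothing else over 345 bases (99.71% identity). mt-Co1 and Gm29216 differed by A1066T over 483 bases. The other 5 pairs were identical over every base compared, which was 681 for mt-Co2, 678 for mt-Atp6, 783 for mt-Co3, 294 for mt-Nd4l and 876 of 1378 for mt-Nd4. No tRNA gene of the mitochondrial genome had another annotated transcript at 95% identity over at least 50 bases, and unannotated DNA of the insertion was not compared. The sources used here do not give how reads with several equally good places were counted. Levels of these 7 genes and of their copies are therefore uncertain. mt-Atp8 and the tRNA genes between these genes, such as mt-Tg and mt-Tr, have no annotated copy. Where unannotated DNA of the insertion copies them, their levels are uncertain in the same way.

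Rods dominated all libraries, as in retina, with 10 rod genes summing to between 12572 and 14197 FPKM (fragments per kilobase of gene, scaled to the depth of the library). Lens genes summed to at most 2.54 FPKM, and pigment epithelium genes to between 250 and 426 FPKM. Reads on the listed genes were recovered from the FPKM values. They numbered 12810558 to 15909796 at 18 months, 14988833 to 30519417 in mutants and 18854246 to 27082456 in WT at 12 months. These were 91.1 to 95.7% of the reads to which FPKM was scaled, and shares of a library's reads below are of them. Malat1, an RNA kept in the nucleus, ranged from 85.7 to 376.8 FPKM over the 10 libraries and overlapped between all groups. Genes for structural RNAs, listed as markers of the poly(A) selection, summed to between 43.5 and 233.8 FPKM and also overlapped. In WT at 12 months alone their sum ran from 47.1 to 233.8 FPKM. The part of this spread in the rRNA and tRNA levels was not tested. Elovl2 itself averaged 23.9 ± 0.0705 FPKM at 18 months, 20.7 ± 1.12 FPKM in mutants and 21.3 ± 1.91 FPKM in WT at 12 months (SD, n = 4, 3 and 3), which does not check the label of a point mutation.

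Mitochondrial genes took 4.31, 3.86, 3.30 and 3.76% of the reads in WT retinas at 18 months. They took 3.30, 3.96 and 3.99% in mutants and 3.43, 3.05 and 2.66% in WT retinas at 12 months. The means were 3.81 ± 0.414%, 3.75 ± 0.390% and 3.04 ± 0.382% (SD), and the 12-month WT libraries overlapped both other groups. The mRNAs made up nearly all of it. The rRNAs held 0.193 to 0.301% of a library's reads and the 22 tRNAs together 0.00459 to 0.00753%. The RNA was labelled as poly(A) RNA, so these shares describe the libraries and not the amounts of each kind of RNA in retina.

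Levels differed widely along the genome. Averaged over the 10 libraries, mt-Co1, the catalytic subunit of complex IV, was highest at 6728 FPKM and alone held 30.9% of mitochondrial reads. mt-Cytb, the cytochrome of complex III, followed at 5646 FPKM and 19.2% of the reads. The complex I genes mt-Nd1, mt-Nd2, mt-Nd5, mt-Nd4 and mt-Nd6 were at 4331, 2494, 1974, 1778 and 1728 FPKM. The remaining 6 mRNA genes form an unbroken run of mRNA genes between mt-Co1 and mt-Nd4, and each was lower than all of the 7 just named. They were mt-Co2 (complex IV) at 344 FPKM, mt-Atp6 (complex V) at 328 FPKM, mt-Co3 (complex IV) at 277 FPKM, mt-Nd3 at 143 FPKM, mt-Nd4l at 38.9 FPKM and mt-Atp8 (complex V) at 6.20 FPKM.

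The same run lies in the stretch copied on chromosome 1, with an annotated copy of 5 of the 6 genes. mt-Atp8 has no annotated copy of its own and shares 43 bases with mt-Atp6. The reads of gene and copy together came to at most 729.5 FPKM for any of these 5 pairs in any library. The lowest value of any of the 7 higher genes was 1027 FPKM, for mt-Nd4 in WT 12-month replicate 3. Both values hold only reads that were counted, and reads left out because they matched gene and copy equally would be in neither. mt-Co1 and mt-Nd4, which are copied over 31.3% and 63.6% of their length, kept 99.1 to 99.5% and 97.4 to 98.5% of the reads of their pair. These shares include reads from the part that is not copied, so they cannot be compared with those of the other 5 pairs.

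**Figure D1:**
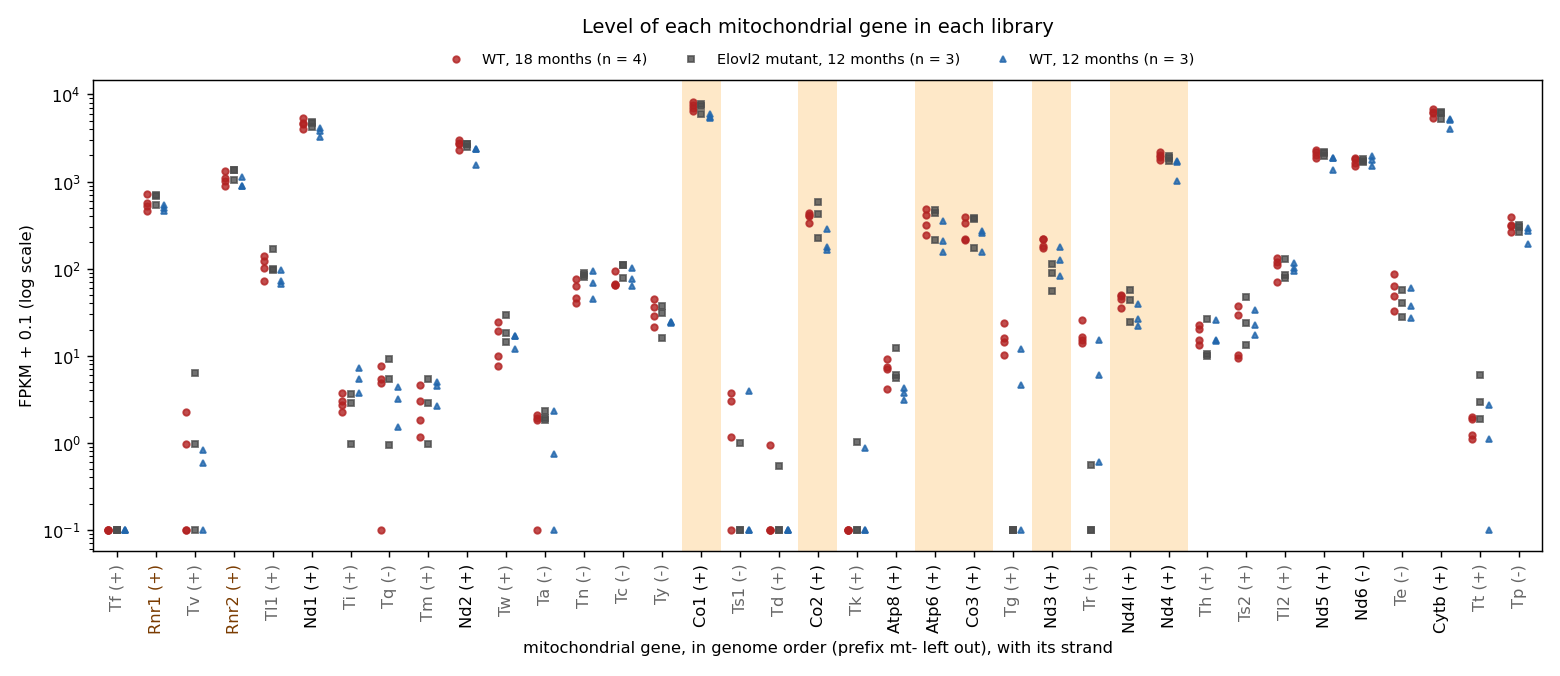
FPKM plus 0.1 on a log axis for each of the 37 genes in genome order, with 1 point per library, for WT at 18 months (circles), Elovl2 mutants at 12 months (squares) and WT at 12 months (triangles). Shaded genes have an annotated copy on chromosome 1, gene names are black for mRNAs, brown for rRNAs and grey for tRNAs, and the 6 mRNA genes from mt-Co2 to mt-Nd4l lie below the 7 other mRNA genes.

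Neighbours could differ by far more than groups did. Of 36 adjacent pairs 21 have no base between them, including 9 that overlap, and the largest gap is 32 bases. mt-Tv, the valine tRNA gene between the rRNA genes, averaged 1.14 FPKM, against 567 FPKM for mt-Rnr1 (12S rRNA) and 1098 FPKM for mt-Rnr2 (16S rRNA) on either side of it. mt-Ts1, a serine tRNA gene that overlaps the end of mt-Co1 by 3 bases on the other strand, averaged 1.24 FPKM. It was listed at 0 in 5 libraries. How reads that touch neighbouring genes were counted is not given in the sources used here, and its part in these differences was not tested. The ratio of mt-Rnr2 to mt-Rnr1 stayed between 1.79 and 2.08 in all 10 libraries.

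The tRNA genes, which are 59 to 75 bases long, spanned the range from no reads to levels above those of some mRNA genes. mt-Tp was highest at 292 FPKM, followed by both leucine tRNA genes, mt-Tl1 and mt-Tl2, at 103 FPKM each. The cysteine gene mt-Tc was at 83.0 FPKM, the asparagine gene mt-Tn at 68.5 FPKM and the glutamate gene mt-Te at 47.9 FPKM. The phenylalanine gene mt-Tf was listed at 0 in all 10 libraries, which allows up to 3 reads or 3.29 FPKM in the shallowest of them, counting error only. The lysine gene mt-Tk and the aspartate gene mt-Td had at most 1 read in any library. The 8 tRNA genes of the minus strand had a median of 38.3 FPKM and the 14 of the plus strand a median of 5.73 FPKM, with 5 of each above 10 FPKM. Whether reads on a tRNA gene came from mature tRNA or from uncut precursors, and how fully poly(A) RNA holds either, was not tested. The sources used here give neither the read length nor whether counting used the strand.

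The age comparison set WT retinas at 18 months against those at 12 months. Most mitochondrial mRNA genes were higher at 18 months, but by limma 0 of the 34 members with a mean of at least 1 FPKM passed an adjusted p of 0.05, where 0% of all 13786 genes tested did (lowest adjusted p of a member 0.9999). On recovered reads edgeR called 0 members and 0.00571% of genes, and DESeq2 called 0 members and 0.0312% of genes. In direction 26 members were higher and 8 lower, against 49.4% of all genes higher. At an unadjusted p under 0.05, 12 members were higher, against 1.69% of all genes, and 1 was lower, against 1.96%. In whole tissue, fewer cells of a type and less RNA per cell cannot be told apart.

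mt-Co2 showed the largest such difference among the mRNAs. It was at 409.6, 404, 436 and 335 FPKM at 18 months, against 281, 161 and 175 FPKM at 12 months. The groups did not overlap, and the difference was 0.98 on the log2 scale of FPKM + 1 (SE 0.301, limma adjusted p = 0.9999). Its identical nuclear copy Gm28661 was at 151, 120, 106 and 159.8 FPKM at 18 months, against 167, 157 and 175 FPKM at 12 months (log2 -0.32, SE 0.149). The share of the pair's reads on mt-Co2 was thus 67.8 to 80.5% at 18 months and 50.1 to 62.9% at 12 months, so the division of reads between gene and copy moved with the difference. The sum of gene and copy was 494 to 560.2 FPKM at 18 months and 319 to 448 FPKM at 12 months, also without overlap.

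mt-Co1, mt-Cytb and mt-Nd4 were the other members higher without overlap, so that 4 of 34 were, against 1.95% of all genes tested. mt-Cytb was at 6837, 6235, 5386 and 6159 FPKM at 18 months, against 5157, 5140.0 and 3969 FPKM at 12 months (log2 0.38, SE 0.135). mt-Nd4 was at 2182, 2011, 1745 and 1904 FPKM at 18 months, against 1702, 1665 and 1027 FPKM at 12 months (log2 0.45, SE 0.173). WT 12-month replicate 3 was the lowest library for both, and its 13 mRNA genes had a median of 10.01 on the log2 scale, against 10.6 to 10.9 in the other 9 libraries. Left out, it gave 7 members higher without overlap, against 12% of all genes, and 7 at an unadjusted p under 0.05 in place of 12, against 5.56% of genes. Without WT 12-month replicate 1, 9 members were higher without overlap, against 3.68% of genes, and 1 lower, against 4.69%. Without replicate 1 at 18 months 7 members were higher at an unadjusted p under 0.05, against 1.76% of genes, and without replicate 2 at 18 months 6 were, against 1.89%.

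mt-Nd6 encodes a complex I subunit and is the only mRNA gene on the minus strand. It was the mRNA gene that was not higher at 18 months. It was at 1863, 1799, 1524.5 and 1641 FPKM at 18 months, against 1961, 1754 and 1528 FPKM at 12 months, which overlapped (log2 -0.03, SE 0.113). The 12 plus-strand mRNA genes had log2 differences of 0.31 to 0.98. Their median was 0.43, against -0.00 for all genes tested, and no p was computed for the list. The rRNA genes were at 0.17 (mt-Rnr1, SE 0.160) and 0.14 (mt-Rnr2, SE 0.161).

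Among the 19 tRNA genes tested 12 were higher and 7 lower at 18 months, with a median of 0.18. The largest values were 1.98 for mt-Tg and 1.74 for mt-Tr, which were 0.96 and 0.81 without WT 12-month replicate 1, and the levels of both are given with those of mt-Nd3. mt-Tp was at 387, 321, 264 and 311 FPKM at 18 months, against 294, 271 and 193 FPKM at 12 months (log2 0.35, SE 0.167). mt-Ti, the isoleucine tRNA gene, was lower without overlap, at 2.95, 2.16, 3.61 and 2.59 FPKM against 5.36, 3.68 and 7.04 FPKM at 12 months (log2 -0.71, SE 0.294). Its values rest on 1 to 11 reads per library, and 2.22% of all genes were lower without overlap.

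**Figure D2:**
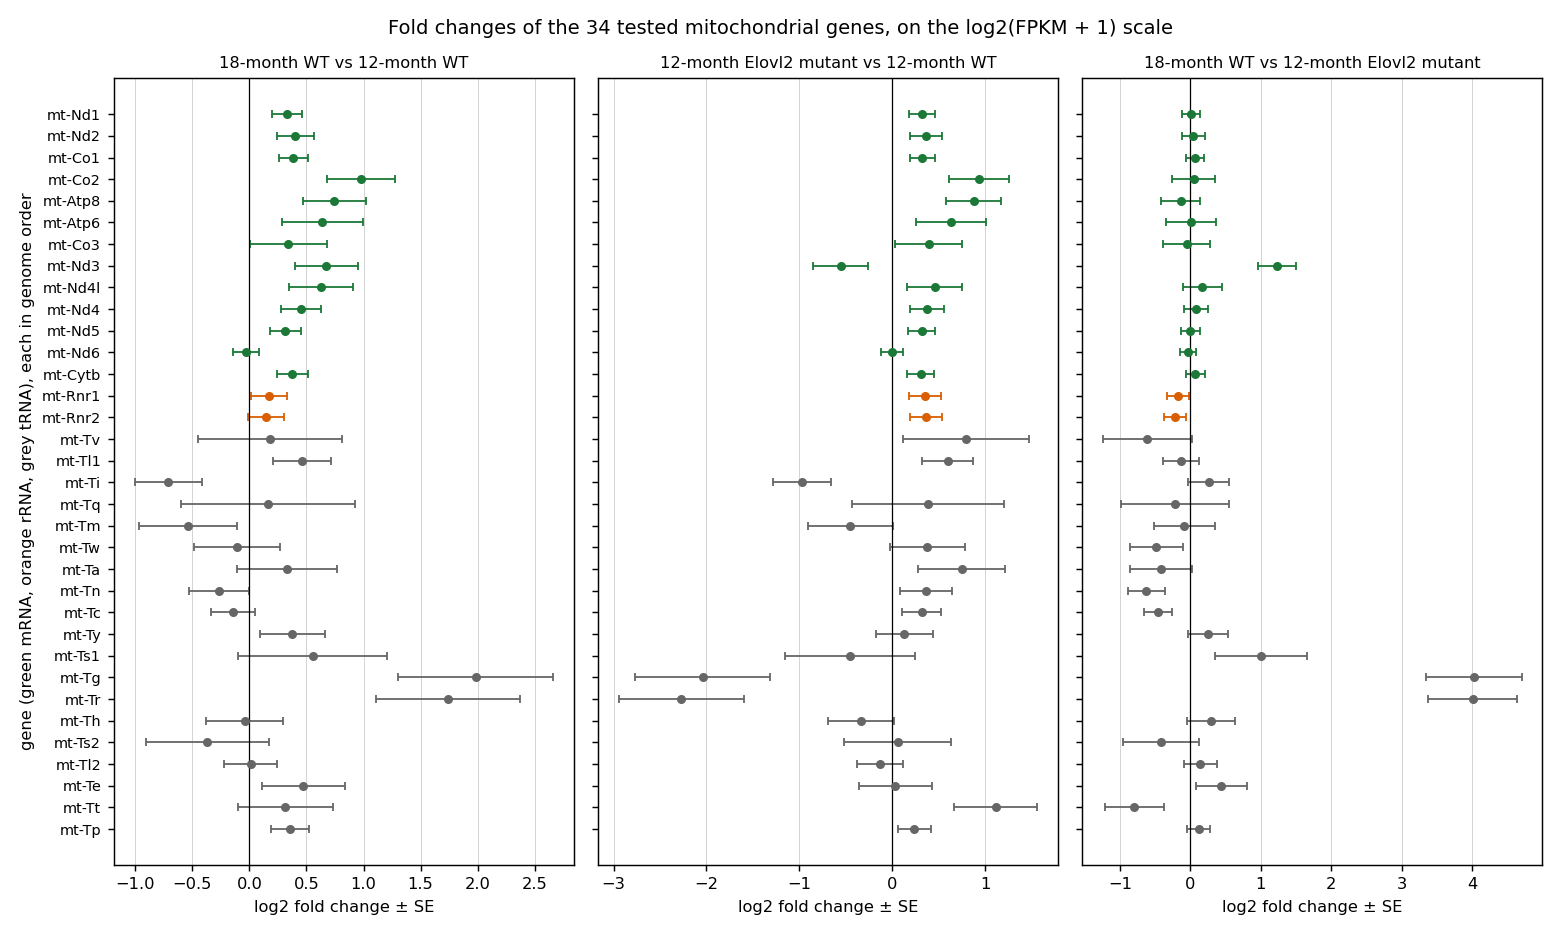
Log2 fold change on the scale of FPKM + 1 for the 34 tested genes (points, with SE from limma as bars) in the 3 comparisons, with mRNA genes green, rRNA genes orange and tRNA genes grey. mt-Tg and mt-Tr stand at 1.98 and 1.74 for age, at -2.04 and -2.27 for genotype, and at 4.02 and 4.01 between WT at 18 months and mutants.

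The genotype comparison set mutant against WT retinas, both at 12 months and against the same 3 WT libraries as above. By limma 0 of 34 members passed, as did 0% of 13786 genes (lowest adjusted p of a member 0.9998), and edgeR and DESeq2 called 0 genes. In direction 25 members were higher and 9 lower, against 47.7% of all genes higher. At an unadjusted p under 0.05, 5 members were higher, against 1.08% of all genes, and 3 lower, against 1.11%. Members higher without overlap numbered 8, against 3.05% of all genes. They were mt-Nd1, mt-Nd2, mt-Nd4, mt-Nd5, mt-Co1, mt-Cytb, mt-Atp8 and the leucine tRNA gene mt-Tl1. mt-Ti and mt-Tr were lower without overlap, against 2.92% of genes. Without WT replicate 1, 14 were higher and 4 lower, against 5.27% and 6.25% of genes. Without WT replicate 3, the lowest library for many mRNA genes, 9 were higher and 2 lower, against 12.8% and 11.5% of genes.

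mt-Atp8, a short subunit of ATP synthase, was at 5.51, 12.2 and 5.90 FPKM in mutants, against 4.12, 2.99 and 3.68 FPKM in WT (log2 0.88, SE 0.296, limma adjusted p = 0.9998). Its values rest on 19, 81 and 19 reads in mutants and on 25, 12 and 17 reads in WT. mt-Nd5 was at 1949, 2126 and 2210 FPKM in mutants, against 1887, 1843 and 1355 FPKM in WT (log2 0.32, SE 0.146). The lowest mutant value of mt-Nd5 lay close above the highest WT value. mt-Co2 was at 223, 583 and 429 FPKM in mutants, against 281, 161 and 175 FPKM in WT (log2 0.93, SE 0.322). Mutant replicate 1 lay within the WT range. Of the reads on mt-Co2 and its copy Gm28661, mt-Co2 took 68.5 to 81.3% in mutants and 50.1 to 62.9% in WT. The sum of gene and copy was 325 to 718 FPKM in mutants and 319 to 448 FPKM in WT, which overlapped. The 5 members higher at an unadjusted p under 0.05 depended on single libraries. Without mutant replicate 2 there were 0, against 0.653% of genes, without mutant replicate 3 there were 2, against 0.464%, and without WT replicate 3 there were 3, against 3.93%. There were 12 without mutant replicate 1, against 1.63% of genes, and 12 without WT replicate 1, against 0.885%.

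mt-Nd6 did not share the difference, at 1666, 1807 and 1742 FPKM in mutants, against 1961, 1754 and 1528 FPKM in WT (log2 -0.00, SE 0.121). The age comparison used the same WT libraries at 12 months, so its result for mt-Nd6 and this one are not independent. Set over its plus-strand neighbour mt-Nd5 within each library, mt-Nd6 stood at a ratio of 0.849, 0.777, 0.826 and 0.814 in WT at 18 months and 0.855, 0.850 and 0.788 in mutants. The ratio was 1.04, 0.952 and 1.13 in WT at 12 months, above the other 7 libraries in each. The ratio to mt-Cytb was 0.266 to 0.288 at 18 months, 0.278 to 0.322 in mutants and 0.341 to 0.385 in WT at 12 months. Both were chosen, among 8 ratios between members, after the values had been seen and carry no test. mt-Nd5 and mt-Nd6 overlap by 14 bases on opposite strands. The sources used here do not say whether counting used the strand. If it did not, RNA of either strand over all of mt-Nd6 was counted for it. The levels and ratios would then not be of mt-Nd6 RNA alone.

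**Figure D3:**
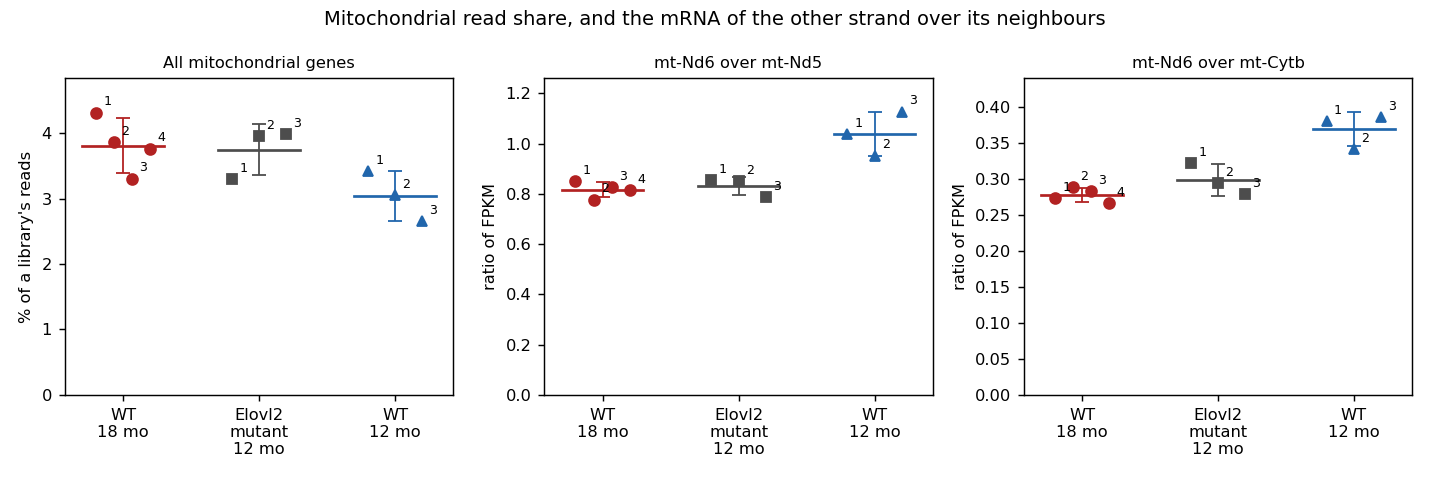
Percent of a library's reads on mitochondrial genes (left) and the ratio of mt-Nd6 to mt-Nd5 and to mt-Cytb (FPKM over FPKM) in each library, with numbers for replicates, a line for the mean and bars for the SD (n = 4, 3 and 3). The 3 WT libraries at 12 months lie above the other 7 in both ratios, while the read shares overlap.

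Against most members, mt-Tg, mt-Nd3 and mt-Tr were lower in mutants than in WT at 12 months. mt-Tg was listed at 0 in all 3 mutant libraries, against 0, 4.48 and 11.7 FPKM in WT (log2 -2.04, SE 0.726). mt-Tr was at 0, 0.453 and 0 FPKM in mutants, against 0.495, 14.9 and 5.85 FPKM in WT (log2 -2.27, SE 0.673). mt-Nd3 was at 56.0, 90.1 and 113 FPKM in mutants, against 82.9, 124 and 177 FPKM in WT (log2 -0.56, SE 0.293). WT replicate 1 sat with the mutants in mt-Tg and mt-Tr, and within the mutant range in mt-Nd3. With it left out the differences of mt-Tg, mt-Tr and mt-Nd3 were -3.06, -3.20 and -0.83, and 0 genes passed (limma adjusted p = 0.0907, 0.0683 and 0.9998). Over all 18 alternatives the adjusted p of mt-Tg lay between 0.0907 and 1.0 and that of mt-Tr between 0.0683 and 1.0.

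WT retinas at 18 months were also set against the mutants. These groups differ in both age and genotype, which cannot be told apart in this comparison. Here mt-Tg, mt-Nd3 and mt-Tr, 3 genes in a row, were higher without overlap, against 2.1% of all genes. Over all 34 members 18 were higher and 16 lower, against 53.2% of genes higher. mt-Tg was at 9.99, 14.3, 23.8 and 15.8 FPKM at 18 months and at 0 in every mutant library. The mean at 18 months was 23.6-fold above a floor set for the mutants, of 3 reads over the group. The spread between the 18-month libraries does not enter this value. The floor covers counting error only, and not reads that an unannotated copy might take. Reads on mt-Tg numbered 67 in the 4 libraries at 18 months and 0 in the 3 mutant libraries, which were of similar or greater depth. mt-Tr was at 14.0, 16.5, 25.7 and 14.9 FPKM at 18 months, with 74 reads, against 0, 0.453 and 0 FPKM in mutants, with 1 read. mt-Nd3 was at 218, 173, 217 and 179 FPKM at 18 months, against 56.0, 90.1 and 113 FPKM in mutants.

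In the fit of all 10 libraries none of the 3 passed. The log2 differences were 4.02 for mt-Tg (SE 0.679, limma adjusted p = 0.7275), 4.01 for mt-Tr (SE 0.630, adjusted p = 0.7275) and 1.23 for mt-Nd3 (SE 0.274, limma adjusted p = 1.0). By limma 0% of 13786 genes passed, 3 members were higher at an unadjusted p under 0.05, against 1.04% of genes, and 2 lower, against 1.1%. The calls depended on the libraries that set the spread. With these 2 groups alone mt-Tg and mt-Tr passed (limma adjusted p = 0.000898 each) as the only calls, 0.0145% of genes. Without WT 12-month replicate 1 both passed (adjusted p = 0.0049) together with Gm28438 (adjusted p = 0.0368), the only 3 calls, 0.0218% of genes. DESeq2 called mt-Tg (adjusted p = 0.0123), mt-Nd3 (0.0237) and mt-Tr (0.0245) among 10 genes, 0.0332% of those tested, and edgeR called 0 (unadjusted p = 0.000239 for mt-Tr). Over the 18 alternatives the adjusted p of both tRNA genes lay between 0.000898 and 1.0. The fitted log2 differences of mt-Tg and mt-Tr depend on the pseudocount, being 7.26 and 6.61 with 0.1 in place of 1.

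Gm28438, the nuclear copy of mt-Nd3, went the other way in the same libraries. It was at 63.4, 36.5, 41.7 and 56.7 FPKM in WT at 18 months, at 145, 182 and 171 FPKM in mutants and at 162, 33.998 and 31.1 FPKM in WT at 12 months. The difference between WT at 18 months and mutants was -1.75 (SE 0.487, limma adjusted p = 1.0). The 3 mutant libraries and WT 12-month replicate 1 were thus the 4 high ones, the same 4 that were lowest for mt-Tg and mt-Tr. The sum of mt-Nd3 and Gm28438 was 246 ± 30.7 FPKM in WT at 18 months, 252 ± 44.9 FPKM in mutants and 204 ± 43.5 FPKM in WT at 12 months (SD, n = 4, 3 and 3), which overlapped. Of the reads on the pair, mt-Nd3 took 77.6, 82.7, 84.0 and 76.2% in WT at 18 months, 28.0, 33.3 and 39.9% in mutants and 34.1, 78.6 and 85.2% in WT at 12 months. The pair differs by the single base shown in capitals, 3 bases from the end of mt-Tg. As background, that position is known to differ between substrains of C57BL/6 mice. The bases that the reads carried there and the substrain origin of the mitochondrial DNA in each library were not analysed here, and the part of this division of reads in the differences of mt-Nd3, mt-Tg and mt-Tr was not tested.

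**Figure D4:**
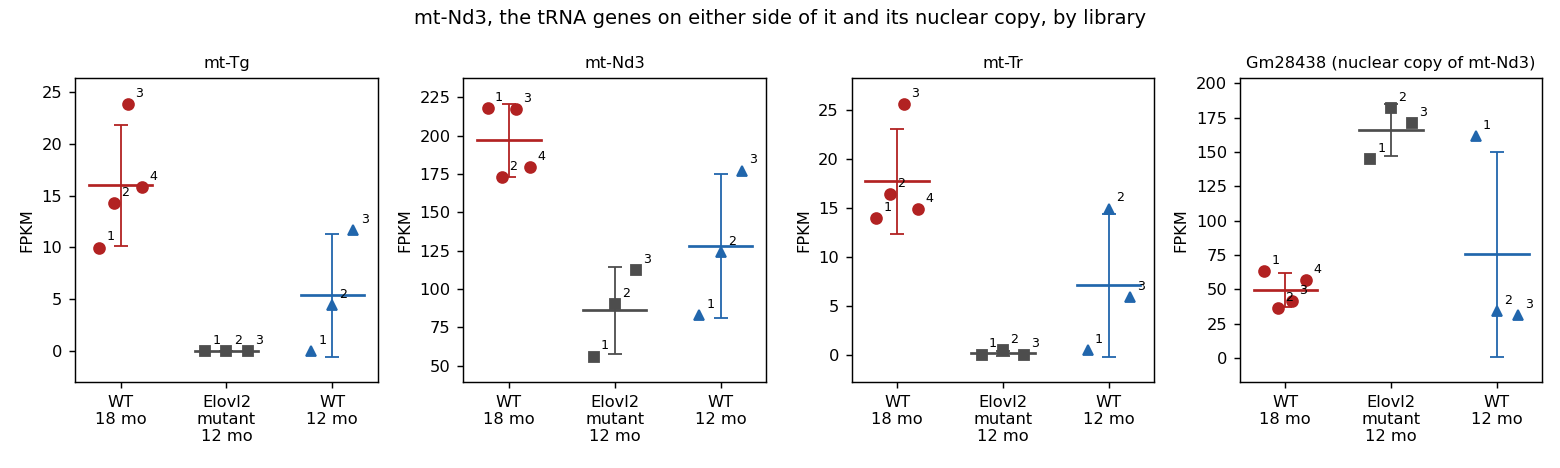
FPKM of mt-Tg, mt-Nd3, mt-Tr and the nuclear copy Gm28438 in each library, with numbers for replicates, a line for the mean and bars for the SD (n = 4, 3 and 3). WT 12-month replicate 1 lies with the 3 mutant libraries, low in mt-Tg and mt-Tr and high in Gm28438.

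The next pair along the genome showed part of the same order. mt-Nd4l took at least 53.7% of the reads shared with its copy Gm10222 in each WT library at 18 months, 33.8, 50.4 and 48.4% in mutants and 32.8, 60.8 and 57.5% in WT at 12 months. For mt-Atp6 and mt-Co3, on the other side of mt-Tg, the groups overlapped throughout. mt-Atp6 took 49.9 to 65.9% of its pair's reads at 18 months, 56.9 to 66.0% in mutants and 45.9 to 66.1% in WT at 12 months. mt-Co3 took 60.5 to 73.6%, 66.7 to 74.5% and 65.7 to 75.2% in the same order of groups.

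**Figure D5:**
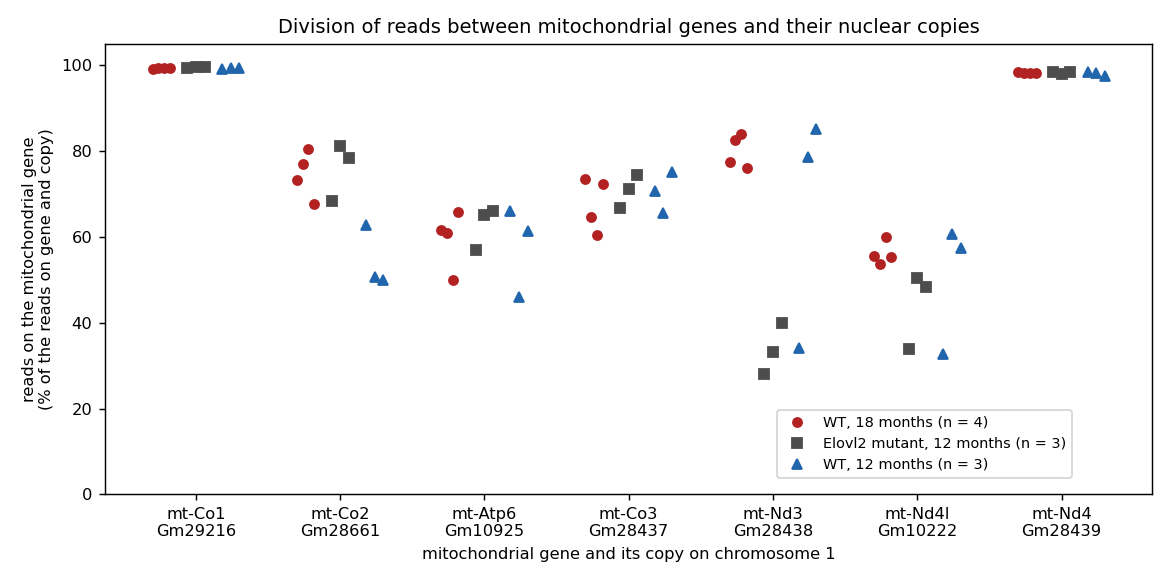
Reads on the mitochondrial gene as a percent of the reads on it and on its chromosome 1 copy, with 1 point per library, for the 7 pairs in genome order. mt-Co1 and mt-Nd4 are copied only in part, and their percentages include reads from the part that is not copied. For mt-Nd3 the mutants (28.0 to 39.9%) and 1 WT library at 12 months (34.1%) lie below the other 6 libraries (76.2 to 85.2%).

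The other 12 mRNA genes differed little between WT at 18 months and mutants, with log2 values of -0.14 to 0.17 and SE of 0.113 to 0.354. The rRNA genes were at -0.18 (mt-Rnr1) and -0.22 (mt-Rnr2, SE 0.161). Lower at 18 months were the neighbouring tRNA genes mt-Tn and mt-Tc, for asparagine and cysteine, at an unadjusted p under 0.05. mt-Tn was at 63.2, 75.7, 40.4 and 45.3 FPKM at 18 months, against 80.9, 89.5 and 83.9 FPKM in mutants, without overlap (log2 -0.63, SE 0.261), where 2.37% of all genes were. mt-Tc was at 66.9, 93.8, 64.2 and 64.1 FPKM at 18 months, against 111, 110 and 78.7 FPKM in mutants, with overlap (log2 -0.46, SE 0.195). They lie on the minus strand beside the origin of light-strand replication.

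The nuclear genes that maintain, read and use the mitochondrial genome gave no call in any comparison. Of 38 measured genes for its upkeep, transcription and RNA processing, 13 were higher and 25 lower at 18 months than at 12 months in WT (median log2 -0.04), with 3 at an unadjusted p under 0.05, all lower. Over all genes tested 49.4% were higher and 1.96% lower at an unadjusted p under 0.05. Those were Twnk, the replicative helicase, at 3.91 ± 0.301 against 4.84 ± 0.466 FPKM (log2 -0.25), Top1mt, the mitochondrial topoisomerase, at 7.88 ± 0.378 against 9.13 ± 0.505 FPKM (log2 -0.19), and Fastkd5, which acts in mRNA processing (log2 -0.28), SD with n = 4 and 3. Twnk was also lower in mutants, at 4.12 ± 0.159 FPKM (SD, n = 3; log2 -0.19, unadjusted p = 0.0474, limma adjusted p = 0.9998). Against WT at 12 months, the list stood at 15 higher and 23 lower in mutants, with 47.7% of all genes higher, but at 21 of 38 higher without WT replicate 3, and between WT at 18 months and mutants at 19 and 19.

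Genes for enzymes that charge mitochondrial tRNAs were higher in 8 of 22 cases at 18 months against WT at 12 months. They were higher in 12 of 22 in mutants and in 9 of 22 at 18 months against mutants. The mutant count was 9 without mutant replicate 1 or WT replicate 1, and the last count was 13 without mutant replicate 1. Vars2, which charges the valine tRNA, was at 3.83 ± 0.327 FPKM at 18 months against 4.67 ± 0.564 FPKM at 12 months (SD, n = 4 and 3; log2 -0.23). Over all genes 49.4%, 47.7% and 53.2% were higher in these 3 comparisons. Genes for proteins of the mitochondrial ribosome were higher in 49, 42 and 46 of 77 cases, with medians of 0.04, 0.02 and 0.02. Their direction turned with single libraries left out. For age 32 of 77 were higher without WT 12-month replicate 2 and 31 without WT 18-month replicate 1. For genotype 25 were higher without WT 12-month replicate 2, 29 without mutant replicate 3 and 33 without WT 12-month replicate 1. At 18 months against mutants 22 were higher without mutant replicate 1 and 21 without WT 18-month replicate 1. Genes for regulators of mitochondrial biogenesis, such as the coactivator Ppargc1b (log2 -0.36, SE 0.166 for age), were higher in 1, 1 and 4 of 9 cases. With a library left out the age count reached 4, without WT 12-month replicate 2, the genotype count 3, without WT 12-month replicate 2 or 3, and the last count 6, without mutant replicate 1 or 2.

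Nuclear subunits of the respiratory chain pair with the mitochondrially encoded ones. Their genes were higher in 74 of 83 cases at 18 months (median log2 0.09, against -0.00 for all genes tested). They were higher in 64 of 83 in mutants (median 0.06) and in 64 of 83 at 18 months against mutants (median 0.04, against 0.01 for all genes). No direction of this list held with every library left out in turn. For age 31 of 83 were higher without WT 12-month replicate 2 (median -0.03), 46 without WT 18-month replicate 1 (median 0.01) and 80 without WT 12-month replicate 3 (median 0.24). For genotype 21 were higher without WT 12-month replicate 2 and 36 without mutant replicate 3. At 18 months against mutants 16 were higher without mutant replicate 1 and 19 without WT 18-month replicate 1. With all libraries none of the 83 reached an unadjusted p under 0.05. Cox7a2, a complex IV subunit, was at 85.6 ± 15.2 FPKM at 18 months against 67.7 ± 8.13 FPKM at 12 months (SD, n = 4 and 3; log2 0.32, SE 0.147). Ndufb4, a complex I subunit, was at 27.2 ± 4.396 FPKM in mutants against 21.4 ± 2.40 FPKM in WT (SD, n = 3 each; log2 0.33, SE 0.178).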

How the data were processed

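The deposited table of 10 uninjected retinas holds FPKM per gene with gene length, symbol, biotype and mm10 coordinates, per the file headers. The submitters' processing notes name mm10 and the tools featureCounts 2.0.6, HISAT2 2.2.1 and DESeq2 1.42.0, without their roles. Members were the 37 genes placed on chromosome MT. FPKM times length gave whole reads for 100% of values, within 0.02 of a whole number. The deposited raw counts of 6 injected retinas list the 37 genes at 0 counts in every library (their 7 nuclear copies hold 650, 668 and 1074 counts with the fatty acid 24:5 and 540, 717 and 761 with vehicle), so the mitochondrial genes were not analysed there.

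log2(FPKM + 1) was tested in limma 3.58.1 (trend, robust, R 4.3.3) over the 13786 genes, of 54532, whose mean reached 1 FPKM, in a single fit of 3 groups, two-sided, with Benjamini-Hochberg adjustment over all genes and a threshold of 0.05. Fold changes of low genes are understated on this scale. Alternatives were edgeR 4.0.16 and DESeq2 1.42.0 on recovered reads, other filters and pseudocounts, 2 groups only, scaling to nuclear reads, the replicate number as a block, and each library left out. The procedure was tested on simulated data. Members, nuclear lists and marker lists were chosen with earlier results of these data known. All members could be named, with up to 3 genes per nuclear list and comparison by smallest p. Copies and sequences were taken from GENCODE M21 transcripts (GRCm38) and compared with blastn. Replicates differed beyond counting noise, with chi-square per degree of freedom of 3.06 to 42.7.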

Additional observations from a re-analysis of the deposited data

Results flagged for a closer look

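Of 45 quantities tested in the 4 WT libraries at 18 months, 3 had a library far from the other 3 relative to their whole range. Chance flags about 1 in 20 such groups, so 3 of 45 is near what chance gives. The alanine tRNA gene mt-Ta was at 0 FPKM in replicate 2, with the nearest library at 1.73 FPKM, which is a matter of single reads. The cysteine tRNA gene mt-Tc was at 93.8 FPKM in replicate 2, with the nearest at 66.9 FPKM. Gm29216, the nuclear copy of the end of mt-Co1, was at 222 FPKM in replicate 1, with the nearest at 122 FPKM.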

How the results depend on the processing

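Members past the threshold numbered 0 for age and for genotype under all 18 alternatives. Between WT at 18 months and mutants they numbered 2 with these 2 groups alone, 3 by DESeq2 on recovered reads, and 0 to 2 with a library left out. Calls over all genes were 4 without a filter, 1 by edgeR and 9 by DESeq2 for age, with 0 to 1 with a library left out (1 without mutant replicate 3). For genotype they were 4 without a filter, and between WT at 18 months and mutants 1 without a filter, 2 with these groups alone, 10 by DESeq2 and 0 to 3 with a library left out. The cause of these shifts was not tested. The median log2 of the 13 mRNA genes stayed within 0.34 to 0.48 for age and 0.22 to 0.42 for genotype, and lay between -0.06 and 0.12 between WT at 18 months and mutants. Among members whose difference exceeded its SE, mt-Tv alone turned sign, at -0.01 to 1.42 for genotype with a library left out (the lowest without mutant replicate 2), and members within 1 SE turned sign 25 times for age, 15 for genotype and 47 between WT at 18 months and mutants. With the replicate number as a block, 9 members were higher and 0 lower for age at an unadjusted p under 0.05, against 0.892% and 1.08% of all genes, and 0 passed in any comparison. Same-numbered libraries did not deviate together (correlations of -0.47 to 0.51), so the numbers were not taken to pair samples. The counts of members without overlap after leaving out WT 12-month replicate 1 or 3 were chosen after seeing the data. Depth limits the tRNA genes most, where 3 reads are worth up to 3.29 FPKM.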
